A study of Mus musculus with 32 samples.

Results

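Caspases are the proteases that carry out apoptosis, and a small set of regulators decides whether they are switched on. The transcripts described here are those of 4 caspases (Casp1, Casp2, Casp6 and Casp8), of Cflar, which holds caspase-8 in check, and of 4 BCL2 family members (Bcl2l1, Mcl1, Bax and Bid), in livers of old mice on restricted diets or drugs. Members were taken as every probe set to which the platform annotation gives one of these symbols and no other. Of the 12488 probe sets on the array, 10 met that rule, and they stood for 8 of the 9 genes. Bax matched none and was not analysed here. A filter on dim signals, explained below, kept 8 of the 10 probe sets, for 7 genes, for testing.

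In apoptosis that starts at a death receptor, caspase-8 is activated on the receptor, and cFLIP, the product of Cflar, competes with it for the same complex. Active caspase-8 cuts executioner caspases, and it also cuts the BH3-only protein BID, whose fragment carries the signal to mitochondria. There BAX opens the outer membrane unless BCL-XL (from Bcl2l1) or MCL1 prevents it. Hepatocytes depend on both of these guards, and they need the BID step for Fas ligand to kill them. Transcript levels show neither cleavage nor activity of these proteins.

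Each array held liver total RNA of 1 male B6C3F1 mouse, a hybrid strain, and 8 groups of 4 gave 32 arrays. Controls (CON) ate 93 kcal a week of the AIN-93M diet. Mice under long-term calorie restriction (LTCR) ate 52.2 kcal a week from 5 months of age. All other groups came from the control cohort at 20 months and were treated for 8 weeks. The CR8 group had 77 kcal a week of restricted diet for 2 weeks and 52.2 kcal a week for 6 more. Drugs mixed into the control diet were metformin (MET), glipizide (GLIP), both together (GM) and rosiglitazone (ROS), and SOY was a soy isoflavone extract. Doses are not given in the sources used here. Every mouse, controls included, was housed alone from 5 months, was killed at 22 months after 48 hours without food, and showed no pathology. Because all groups were fasted, no fed level is at hand. The p-values measure the spread between these mice, 1 array each.

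Values are the deposited linear intensities, in units scaled by the authors. Column medians ran from 144.75 to 170.05, and log2 intensities of arrays within a group correlated at 0.953 to 0.976. The 6 measured hepatocyte markers of 7 listed summed to between 101200 and 152600 in every array, the markers of the labelled tissue. Summed skeletal muscle markers (15 of 16 measured) were over 2 times the median array in 5 arrays: 19090 in CON 3, 12820 in CR8 1, 14870 in CR8 2, 27180 in ROS 4 and 9249 in SOY 3, against 2668 to 4472 in the others. Called member differences, and those of Casp6, Cflar, Casp8 and Bcl2l1 that turn on these groups, are given with and without them where described.

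Over the 8 groups, 3 of the 8 tested member probe sets differed: Casp6 (limma's moderated F test, adjusted p = 8.92e-05), Cflar (adjusted p = 0.000200) and 1 of the 2 probe sets of Casp2 (161263_f_at, adjusted p = 0.0111). The share called among all 7357 tested probe sets was 27%. Group membership held 75.2% of the variance of log2 values for Casp6, 71.9% for Cflar and 58.1% for that Casp2 probe set. The F test rests on the same split of variance, so high shares in these 3 follow from their call. For the members not called it held 48.6% (Casp8), 42.2% (Bcl2l1 99027_at), 37.7% (Mcl1), 31.1% (Bid) and 19.4% (Casp2 99049_at). The median over all tested probe sets was 36.6%. The other 5 were not called, with adjusted p of 0.0693 for Casp8, 0.0944 for Bcl2l1 (99027_at), 0.142 for Mcl1, 0.318 for Bid and 0.745 for the second Casp2 probe set (99049_at). Highest and lowest group means differed 2.6-fold for Cflar and 2.3-fold for Casp6, and 1.11-fold for Casp2 99049_at.

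**Figure D1:**
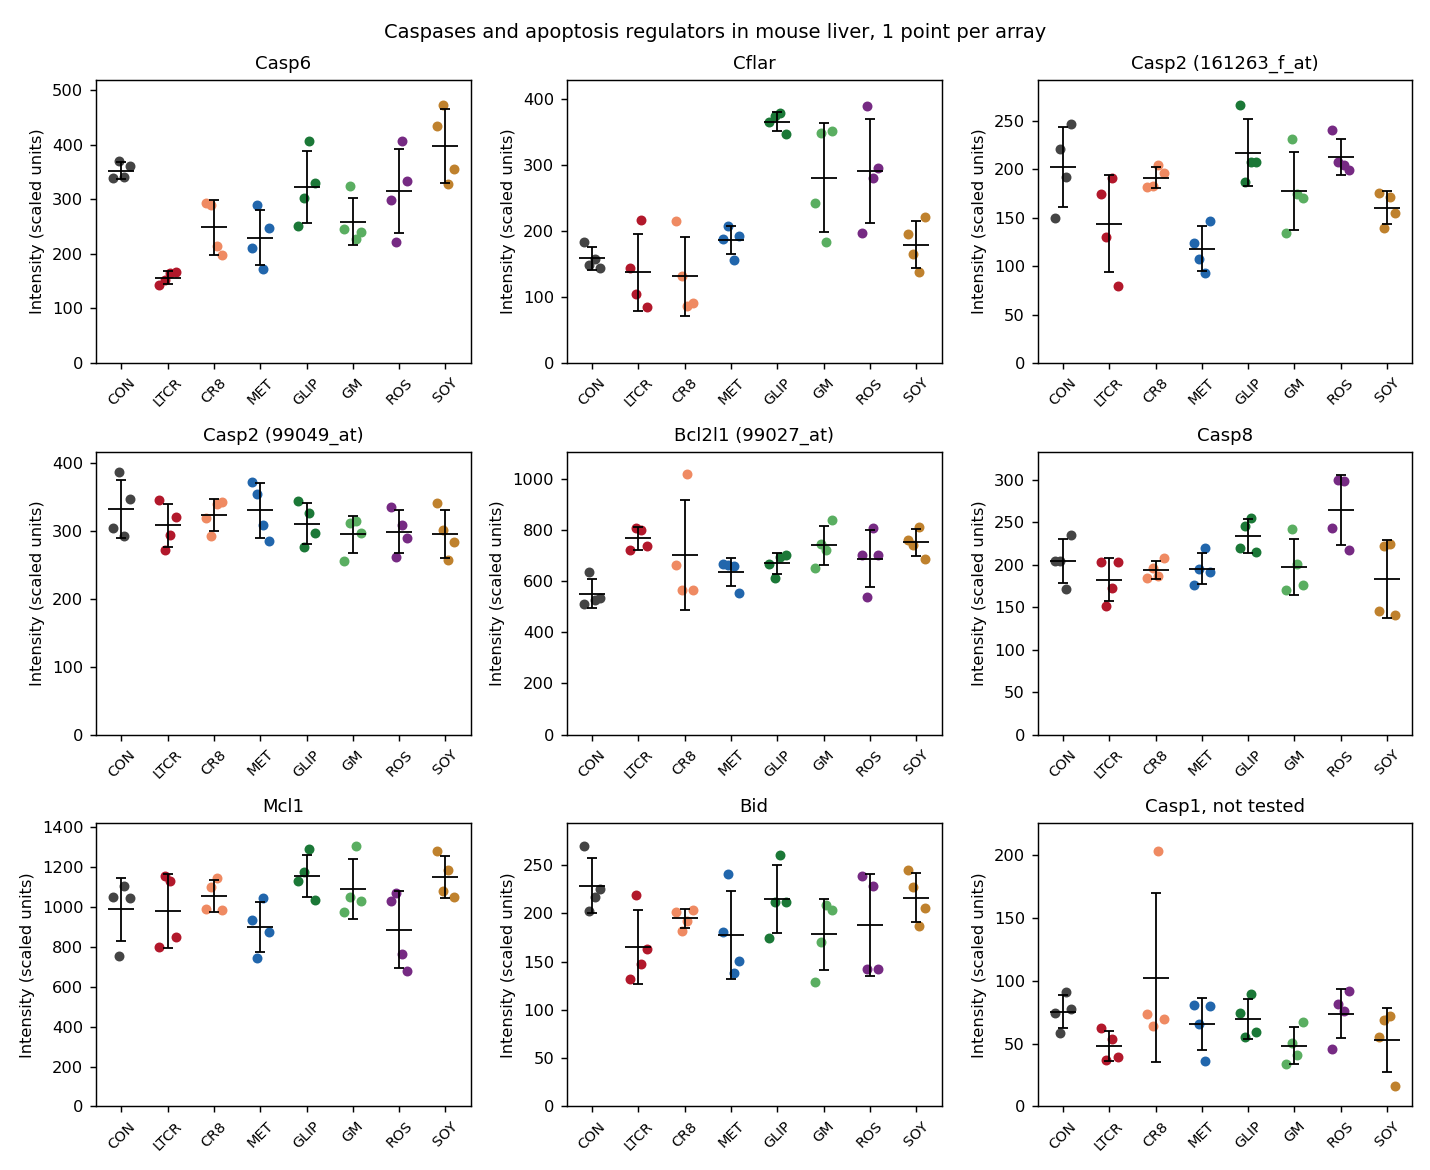
Intensity (scaled units, linear axis from 0) of 8 tested probe sets and of Casp1, 1 panel each, in the 8 groups; points are single arrays, long bars group means and whiskers 1 SD (n = 4). The 4 LTCR arrays of Casp6, 142.8 to 166.6, lie below every other array, and the 4 GLIP arrays of Cflar, 345.9 to 378.4, lie above every array of CON, LTCR, CR8, MET and SOY.

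Casp6, the executioner caspase that cleaves nuclear lamins, was lowest under long-term restriction. The 4 CON arrays read 338.5, 369.7, 341 and 361.7. The LTCR arrays read 142.8, 151.5, 165 and 166.6. No LTCR array reached the lowest of the other 28, which was 171.4 in a MET liver. Casp6 fell by 1.05 ± 0.17 on the log2 scale (SE; 95% interval -1.39 to -0.71) from 352.7 ± 15.4 (SD, n = 4) in CON to 156.5 ± 11.4 in LTCR, with limma's adjusted p = 4.39e-05. This and every other fold or log2 difference is of log2(intensity + 27), which understates the change of dim genes. In whole liver, fewer cells of a type and less RNA per cell cannot be told apart.

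Marker lists moved beside it. Summed Kupffer cell and macrophage markers (13 of 13 measured) were 3252 to 4831 in LTCR and 5408 to 6770 in CON. The cholangiocyte list (5 of 7 measured) summed to 2184 to 2637 in LTCR and 4594 to 5932 in CON, nearly all of it Krt8 and Krt18, keratins that hepatocytes also make. The biliary markers Krt7, Krt19 (92550_at) and Epcam were at 21.8, 10.5 and 40.0 in CON, near the 20th percentile of all intensities, 27. Interferon-induced genes (9 of 10) summed to 1727 to 2026 in LTCR and 3810 to 6684 in CON. A list of p53 targets (4 of 5 measured) summed to 666.1 to 780.5 in LTCR and 1143 to 1582 in CON. The hepatocyte sum was instead higher, 123500 to 152600 in LTCR and 101200 to 115200 in CON. What part these play in the LTCR values of Casp6 and Bcl2l1 was not tested.

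Short restriction gave Casp6 values of 294.1, 288.9, 214 and 197.4 in the CR8 livers. These lay between LTCR and CON and overlapped neither group. The mean of 248.6 ± 50.0 was -0.48 ± 0.17 from CON on the log2 scale, which did not pass the test (limma's adjusted p = 0.211). No member was called in CR8 against CON, where limma called 0.544% of all tested probe sets. Of the members, 2 had an unadjusted p under 0.05, Casp6 and Bcl2l1. The share of all probe sets at an unadjusted p under 0.05 was not counted. Such counts of members, here and below, thus have no background beside them. Against CR8, LTCR was lower for Casp6 by -0.57 ± 0.17 (0.673-fold, limma's adjusted p = 0.0229), the only member called of 8 where 12% of all probe sets were (7.34% lower).

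The 2 higher CR8 arrays are those with muscle transcripts. Without the 5 muscle arrays CR8 stood -0.72 ± 0.21 from CON in Casp6, a larger difference that did not pass either (limma's adjusted p = 0.142). In the same fit the LTCR and CR8 livers differed in Casp6 by -0.34 ± 0.20, and the call was lost (limma's adjusted p = 0.337). It was also lost without CR8 1 (adjusted p = 0.0741), CR8 2 (0.0835), LTCR 1 (0.0659) or LTCR 2 (0.0513). The LTCR difference from CON was -1.07 ± 0.18 without the muscle arrays (adjusted p = 0.000271).

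Casp6 was lower with metformin too. The MET arrays read 210.5, 289.4, 171.4 and 247.2, all below the lowest CON array, 338.5. With a mean of 229.6 ± 50.5, MET stood -0.59 ± 0.17 from CON (0.666-fold, limma's adjusted p = 0.0404). This call is close to the threshold: without the muscle arrays the difference was -0.60 ± 0.18 with an adjusted p of 0.0829, and leaving out any 1 of the 8 arrays other than MET 2 took it to between 0.0584 and 0.136. Marker sums moved in MET too, without overlap: the hepatocyte list was at 123400 to 134600 against 101200 to 115200 in CON, the cholangiocyte list, nearly all keratins as above, at 2986 to 3821 against 4594 to 5932, and the p53 list at 938.6 to 1114 against 1143 to 1582. Their part in the MET values of Casp6 and Casp2 was not tested.

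The combination group GM read 244.8, 323.8, 228.1 and 240.1 for Casp6, again all below CON. Its difference of -0.42 ± 0.17 did not pass (limma's adjusted p = 0.174), nor did the difference between GM and MET, 0.17 ± 0.17 (95% interval -0.17 to 0.51, adjusted p = 0.634). GLIP, at 322.6 ± 65.5, and ROS, at 315.3 ± 76.8, overlapped CON. SOY had the highest mean, 397.9 ± 67.8, and overlapped CON too. In the order of group means (SOY, CON, GLIP, ROS, GM, CR8, MET, LTCR), every pair of neighbours overlapped except MET and LTCR.

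Cflar encodes cFLIP, a caspase-8 relative without protease activity. Its level was highest in the GLIP livers, which read 364.5, 373.4, 378.4 and 345.9. The CON livers read 182.8, 148.6, 158 and 144.3. Every GLIP array was above every array of CON, LTCR, CR8, MET and SOY, and the spread within GLIP was the narrowest of the 8 groups, at 14.3 (SD). Cflar was 2.12-fold higher with glipizide, going from 158.4 ± 17.2 to 365.5 ± 14.3 (log2 difference 1.09 ± 0.23, 95% interval 0.62 to 1.56, limma's adjusted p = 0.0429).

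It was 1 of only 10 probe sets called in GLIP against CON, a share of 0.136%, with 0.122% higher, and the 1 member called of 8. Leaving out any 1 of the 8 arrays kept the difference at 1.05 to 1.15 and ended the call (adjusted p 0.0718 to 0.164), as did leaving out the muscle arrays (1.09, adjusted p = 0.0953). Macrophage markers summed to 18900 in GLIP 3 and to as little as 5144 in another GLIP liver. Without GLIP 3 the Cflar difference was 1.07 ± 0.25 (adjusted p = 0.0834). What part macrophage content plays in the Cflar values was not tested.

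The other groups given glipizide or rosiglitazone were also above CON for Cflar, with wide spread. GM read 241.9, 347.7, 182.9 and 350.5, its lowest array a fraction above the highest CON array, 182.8. ROS read 197.3, 388.7, 279.9 and 295.4, with no overlap with CON. Neither passed the test: GM differed by 0.69 ± 0.23 (limma's adjusted p = 0.105) and ROS by 0.75 ± 0.23 (adjusted p = 0.252), or 0.73 ± 0.24 without the muscle arrays (0.554). With each array scaled to the same median, GM did pass, at 0.82 (adjusted p = 0.0281).

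GM against GLIP gave -0.39 ± 0.23 for Cflar, with an interval of -0.86 to 0.08 that includes 0 (limma's adjusted p = 0.643). No probe set at all was called by limma in GM against GLIP, 0%, and no member had an unadjusted p under 0.05. In GM against MET, Cflar differed by 0.50 ± 0.23 (adjusted p = 0.251). There 2.62% of all probe sets and no member were called, with 2 members at an unadjusted p under 0.05.

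No restricted group was called for Cflar. LTCR livers ranged from 84.7 to 215.8 and CR8 livers from 86.3 to 215.2, both wider than CON and overlapping it. LTCR differed from CON by -0.23 ± 0.23 (limma's adjusted p = 0.527). CR8 differed from CON by -0.29 ± 0.23 (adjusted p = 0.693), or -0.67 ± 0.27 without the muscle arrays (0.336). In CR8 only CR8 1, a muscle array, read above the lowest CON array. LTCR against CR8 gave 0.06 ± 0.23 (0.901), or 0.44 ± 0.26 without the muscle arrays (0.342). MET, at 185.8 ± 21.6, and SOY, at 179.2 ± 36.2, overlapped CON as well. In the order GLIP, ROS, GM, MET, SOY, CON, LTCR, CR8 every pair of neighbours overlapped.

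Casp8, the initiator caspase that cFLIP restrains, is the neighbour of Cflar among protein-coding genes of chromosome 1 (RefSeq, GRCm38.p6 gene order). It was not called in GLIP, which had 233.9 ± 19.8 against 204.0 ± 25.9 in CON, a log2 difference of 0.18 ± 0.14 (95% interval -0.11 to 0.47, limma's adjusted p = 0.761). Its highest group was ROS, with 243.8, 299.8, 299.2 and 217.7 against 204.5, 204.2, 172 and 235.5 in CON. The groups overlapped through ROS 4, and the difference of 0.33 ± 0.14 did not pass (adjusted p = 0.518); without the muscle arrays, ROS 4 among them, it was 0.35 ± 0.16 (0.715). The F test of Casp8 passed without GM 2, ROS 4, SOY 2 or SOY 3 (adjusted p 0.0423 to 0.0498) and without the muscle arrays (0.0457). As a description over the 32 arrays, Casp8 and Cflar correlated at 0.369, and at -0.133 once group means were removed. All other groups had Casp8 means between 182.5 and 197.4.

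**Figure D2:**
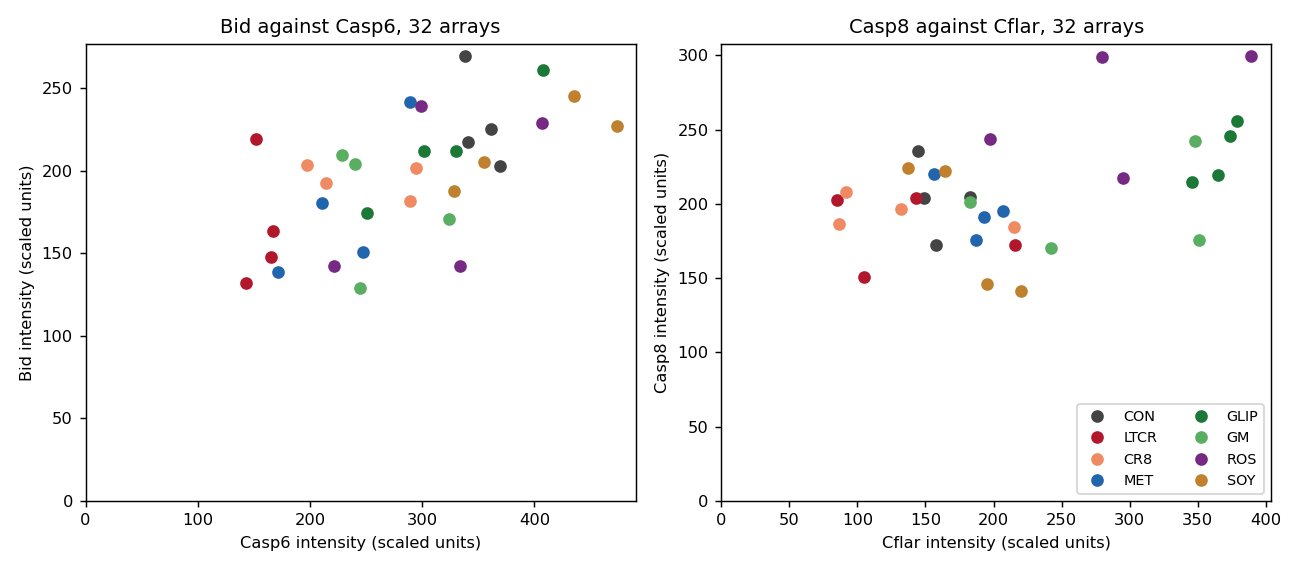
Bid against Casp6 (left) and Casp8 against Cflar (right), intensity in scaled units on linear axes, 1 point per array (32), coloured by group. The LTCR arrays lie furthest left in the first panel, with Bid from 131.8 to 219.4; in the second the GLIP arrays are high in Cflar with Casp8 between 214.9 and 255.6.

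Casp2, an initiator caspase linked to stress and DNA damage, was measured by 2 probe sets, and only 1 of them was called in MET. For 161263_f_at the CON arrays read 150, 220.8, 192.1 and 247.3, and the MET arrays 123.6, 107.5, 93.2 and 147.1. All MET arrays lay below all CON arrays, if only just. The means were 202.6 ± 41.7 and 117.8 ± 23.1, a log2 difference of -0.66 ± 0.18 (0.633-fold, limma's adjusted p = 0.0327). For 99049_at, CON read 304, 386.7, 292.7 and 347.1 and MET 372.4, 353.8, 308.4 and 285.8. These overlapped, with a difference of -0.01 ± 0.11 (95% interval -0.23 to 0.22, adjusted p = 0.976).

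The interval of 99049_at does not include the difference of 161263_f_at. Over 32 arrays the pair correlated at 0.129, and at 0.315 around group means. The suffix _f_at marks a probe set that the array's maker designed on sequence shared within a family, so signal from related transcripts cannot be told apart from Casp2. The call was lost without CON 2, CON 3, CON 4, MET 1, MET 2 or MET 3 (adjusted p 0.0530 to 0.120) and without the muscle arrays (0.0987). In GM, which also received metformin, 161263_f_at was at 177.7 ± 40.0 and overlapped CON, and GM was 0.49 ± 0.18 above MET without passing (adjusted p = 0.135).

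With Casp6 and Casp2 161263_f_at, 2 of 8 member probe sets were lower in MET and none higher. All tested probe sets gave 4.17% called in either direction, and 2.34% lower. The median member difference was -0.09, beside -0.03 for all tested probe sets. Under LTCR the Casp2 probe set read 174.5, 130.4, 191.2 and 79.5, a difference of -0.46 ± 0.18 that missed the threshold (limma's adjusted p = 0.0699) and passed it without CON 1, LTCR 1 or LTCR 3 (0.0212 to 0.0474).

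Bcl2l1, which encodes the survival protein BCL-XL, was read by 99027_at, and its level in CON was the lowest of all groups. CON arrays read 510.2, 633.2, 526.3 and 533.5. LTCR arrays read 719.1, 807.8, 798.9 and 738.1, all above CON. It rose 1.38-fold under long-term restriction, from 550.8 ± 55.8 to 766.0 ± 44.0 (log2 difference 0.46 ± 0.13, 95% interval 0.19 to 0.73, limma's adjusted p = 0.0127; 0.44 and 0.0418 without the muscle arrays).

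SOY and GM livers also lay wholly above CON for Bcl2l1. SOY read 760.8, 740.7, 812.4 and 687.1, and GM read 652.5, 745.8, 719.9 and 838.1. Neither passed: SOY differed by 0.43 ± 0.13 (limma's adjusted p = 0.391), or 0.37 ± 0.16 without the muscle arrays (0.442), and GM by 0.41 ± 0.13 (adjusted p = 0.0972). Equal array medians took GM past the threshold, at 0.55 (adjusted p = 0.0142). In SOY against CON limma called 0% of all probe sets and no member, and Bcl2l1 was the 1 member with an unadjusted p under 0.05.

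The remaining groups overlapped CON for Bcl2l1. Means were 635.4 ± 54.5 in MET, 668.3 ± 41.8 in GLIP, 686.6 ± 111 in ROS and 701.4 ± 215 in CR8, where CR8 3 alone read 1016.3 and the others 563.4 to 661. All 7 differences from CON were above 0, but the comparisons share the CON arrays. The CR8 difference of 0.30 ± 0.13 (limma's adjusted p = 0.361) was 0.11 without CR8 3 and 0.43 ± 0.17 without the muscle arrays (0.338). The F test of Bcl2l1 over the 8 groups passed without CR8 3 (adjusted p = 0.00743) and with equal array medians (0.0240).

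In LTCR against CON, then, 1 of 8 member probe sets was higher and 1 lower, beside 19.3% of all tested probe sets called, 7.53% higher and 11.8% lower. That share of members is close to the background. Arrays of both groups failed to overlap for those 2 members and for 21.2% of all probe sets. The members' median difference was -0.19, and the median of all tested probe sets was 0.00. Of the 8 differences 7 were below 0, among them both Casp2 probe sets and Mcl1 at -0.01. The share of all probe sets below 0 was not counted. Of the 8, 4 had an unadjusted p under 0.05, with Bcl2l1 the one above 0.

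**Figure D3:**
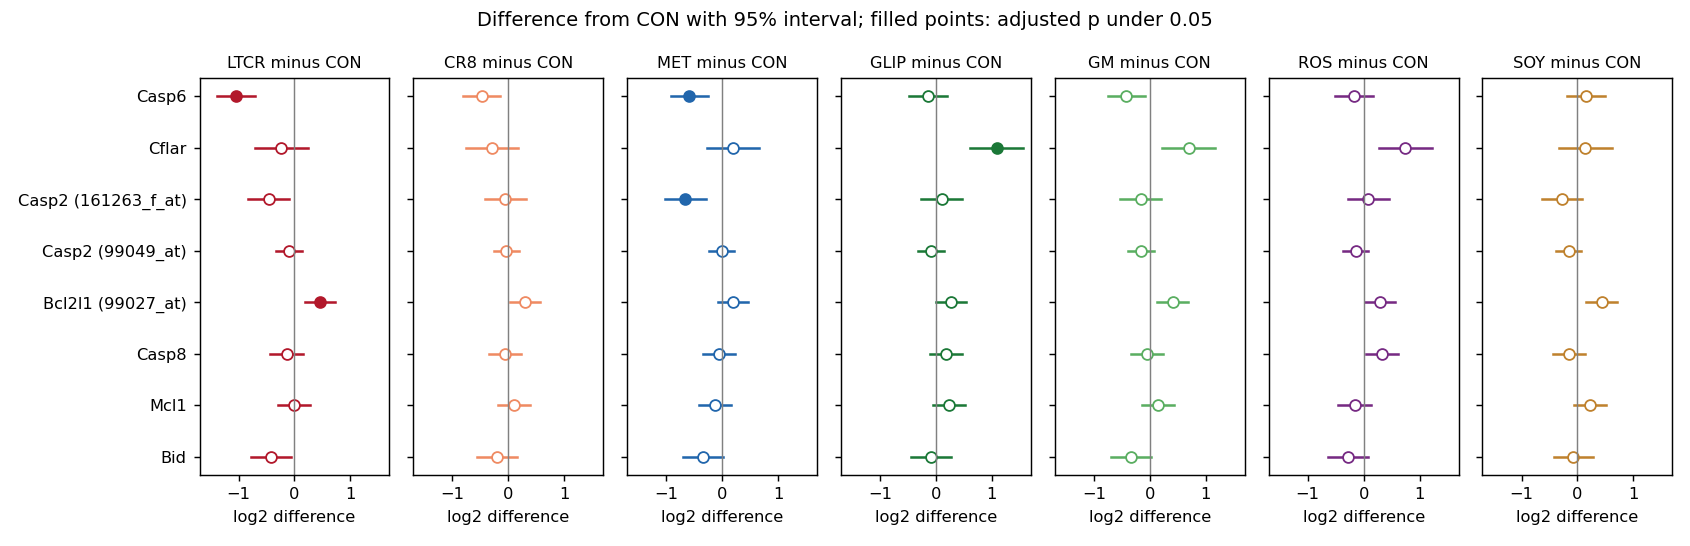
Log2 difference from CON for the 8 tested member probe sets, 1 panel per treated group, with 95% intervals; filled points have a limma adjusted p under 0.05. Filled points are Casp6 and Bcl2l1 in LTCR, Casp6 and Casp2 (161263_f_at) in MET and Cflar in GLIP.

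Mcl1, the other guard, was the brightest member probe set and was called nowhere. Its CON arrays read 1050.2, 753.1, 1105.5 and 1045.6, and group means ran from 887.6 ± 194 in ROS to 1158 ± 106 in GLIP. LTCR and CON were at 982.8 ± 186 and 988.6 ± 159, a difference of -0.01 ± 0.14 (95% interval -0.30 to 0.28, limma's adjusted p = 0.968) whose sign turned with equal medians, quantile normalization or no muscle arrays. The brightness of different probe sets does not rank their transcripts by amount, since it also depends on the probes.

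Bid, the BH3-only link from caspase-8 to mitochondria, had its highest mean in CON and its lowest in LTCR. CON read 269.7, 202.8, 217.4 and 225.5, and LTCR 131.8, 219.4, 147.5 and 163.5. One LTCR array lay within CON, and the difference of -0.42 ± 0.17 did not pass (limma's adjusted p = 0.0867). Without that array, LTCR 2, it was -0.55 and passed (adjusted p = 0.0353). Over the 32 arrays Bid correlated with Casp6 at 0.591, the highest value among pairs of member probe sets, and at 0.426 around group means.

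Casp1, the inflammatory caspase that matures interleukin-1 beta, was too dim for the test, as was Bcl2l1 99026_at. Casp1 read 74.5, 58.6, 90.8 and 77.5 in CON and 62.5, 37.2, 53.9 and 39.2 in LTCR. In CR8 it read 73.2, 63.6, 202.9 and 69.6, a single high array. That array, CR8 3, also had the highest interferon-induced sum of its group, 4621, and the highest Bcl2l1. In a fit without the filter (12422 probe sets) Casp1 did not differ over the groups (F test, adjusted p = 0.331), and LTCR was -0.45 ± 0.27 from CON (adjusted p = 0.343). Bcl2l1 99026_at read 5.5 to 73.1, and all 4 arrays of CON and of GLIP were under 27.

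Across the 7 comparisons with CON, 56 pairs of a member probe set and a comparison were tested. Arrays did not overlap in 11 of them, and 5 were called. Non-overlap among all probe sets was 7.2% in CR8, 10% in MET, 5.44% in GLIP, 10.5% in GM, 4.85% in ROS and 5.36% in SOY. GM against CON had 3 members that did not overlap (Bcl2l1, Casp6 and Cflar), all 3 with an unadjusted p under 0.05 and none called, where 1.55% of all probe sets were. ROS had 3 members at an unadjusted p under 0.05 (Cflar, Casp8 and Bcl2l1). None of the members was called in ROS, where 0.136% of all probe sets were. The called shares are no background for counts at an unadjusted p, for which no share of all probe sets was counted.

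For each member that passed the F test, the genes whose log2 values most resembled it over the 32 arrays are given as a description. Arrays share their groups and scaling. These genes were picked on the same arrays. Their group differences, here and in the next paragraph, therefore follow in part from that choice. For Casp6 they were Maip1, a mitochondrial protein (Pearson r 0.846), the small GTPase Rhou (0.834) and the ubiquitin-conjugating enzyme Ube2d3 (0.833). In LTCR against CON all 3 were lower, by -0.55 ± 0.10, -0.64 ± 0.15 and -0.78 ± 0.13 (limma's adjusted p = 0.000326, 0.00288 and 0.000136). For Cflar they were the RNA helicases Ddx6 (0.871) and Dhx36 (0.852) and Pdia4, an endoplasmic reticulum disulfide isomerase (0.810).

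Pdia4 rose with glipizide from 1081 ± 119 to 2370 ± 451 (log2 difference 1.10 ± 0.21, limma's adjusted p = 0.0174; 0.0643 to 0.128 without CON 3, CON 4, GLIP 1 or GLIP 4), while Ddx6, at 1.82 ± 0.50 (0.182), and Dhx36, at 0.84 ± 0.21 (0.162), did not pass. Pdia4 was lower in LTCR than in CON, by -0.94 ± 0.21 (adjusted p = 0.00140). For Casp2 161263_f_at the nearest were the RNA helicase Ddx17 (r = 0.734), Lmo1 (0.687) and Vamp4 (0.682). Ddx17 was lower in MET by -0.73 ± 0.13 (adjusted p = 0.00219) and in LTCR by -0.55 ± 0.13 (adjusted p = 0.00276).

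The rest of the pathway was read from lists of 63 other apoptosis genes. A probe set existed for 45, and 29 were bright enough to test, 1 probe set per gene. In LTCR against CON 6 of the 29 were called, 20.7% beside 19.3% of all probe sets, 3 higher and 3 lower. Their median difference was -0.10. In LTCR against CR8 3 of the 29 were called, beside 12% of all probe sets. In MET and in GM against CON 1 each was called, beside 4.17% and 1.55% of all. In the other 6 comparisons limma called none, with 0 to 6 of the 29 at an unadjusted p under 0.05.

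Inhibitors of apoptosis, which bind caspases or their activators, had 4 tested genes, 2 of them lower in LTCR than in CON. Among all probe sets 11.8% were lower there, and lists this small were not tested as sets. Birc6, a giant ubiquitin ligase, fell by 0.89 ± 0.14 on the log2 scale, from 367.9 ± 46.1 to 187.8 ± 36.9 (limma's adjusted p = 3.41e-05). Birc2, or cIAP1, fell by 0.41 ± 0.11, from 330.4 ± 21.9 to 242.3 ± 9.88 (adjusted p = 0.00789), by its brighter probe set, 102734_at. A second probe set of Birc2, 161883_f_at, did not differ over the groups (F test, adjusted p = 0.966). Both genes were also lower in LTCR than in CR8, Birc6 by -0.76 ± 0.14 (adjusted p = 0.000574) and Birc2 by -0.37 ± 0.11 (adjusted p = 0.0267; 0.126 without CR8 3, 0.0670 without LTCR 1 and 0.0595 without LTCR 4).

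Of the BH3-only and related genes, 2 of 4 were called in LTCR against CON and in opposite directions, beside 19.3% of all probe sets called. Bnip3, a mitochondrial protein of mitophagy and cell death, rose from 1468 ± 191 to 2158 ± 198 in LTCR (log2 difference 0.55 ± 0.13, limma's adjusted p = 0.00353). Bik, a BH3-only activator of apoptosis, fell by 0.92 ± 0.30 (adjusted p = 0.0291), although its arrays overlapped and the call was lost without CON 2, CON 4, LTCR 1 or LTCR 2 (0.0674 to 0.158). Bnip3 was 0.41 ± 0.13 above CR8 as well (adjusted p = 0.0443; 0.0518 to 0.121 with any 1 of the 8 arrays left out).

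Among executioner substrates, Dffa, the inhibitor of the apoptotic nuclease, rose in LTCR by 0.54 ± 0.14 (limma's adjusted p = 0.00732), and its second probe set by 0.48 ± 0.12 (adjusted p = 0.00650). The lamin gene Lmna, whose product caspase-6 cleaves, was 0.39 ± 0.10 above CON in GM by its brighter probe set, 98059_s_at (adjusted p = 0.0496; 0.0680 to 0.133 with any 1 array but GM 2 left out). Its other probe set, 98060_at, was instead higher in LTCR, by 0.42 ± 0.14 (adjusted p = 0.0294). Readings of Lmna thus depend on the probe set.

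The receptor gene Ltbr rose in LTCR by 0.43 ± 0.15 (limma's adjusted p = 0.0459), as 1 of 3 tested death receptors and ligands. Among all probe sets 7.53% were higher there. Ltbr lost its call without any 1 of 6 arrays (CON 1, 3 and 4, LTCR 2, 3 and 4, with adjusted p 0.0511 to 0.121). Without the muscle arrays the calls of Ltbr (0.144), of Lmna in GM (0.0938), of Pdia4 in GLIP (0.111) and of Bnip3 against CR8 (0.0577) were lost as well. Endog, a mitochondrial nuclease, fell in MET by 0.63 ± 0.17, from 300.0 ± 55.9 to 183.6 ± 34.9 (adjusted p = 0.0273; 0.0593 to 0.0908 without CON 2, CON 3, CON 4, MET 1 or MET 2, and 0.0752 without the muscle arrays). None of 5 initiator and adaptor genes, 3 anti-apoptotic BCL2 genes or 2 pro-apoptotic effectors was called by limma in any of the 10 comparisons, with 2, 6 and 0 of their differences at an unadjusted p under 0.05. Casp9, the mitochondrial initiator caspase, Bcl2 and Bak1, the partner of Bax, are among these, each by its brightest probe set. Of the dimmer probe sets of the initiator and adaptor genes, Casp9 100368_at (adjusted p = 0.0328) and Cradd 102951_at (0.0248) passed the F test. Apaf1, Fas, Tnf, Casp4 and Casp12 had probe sets below the filter.

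**Figure D4:**
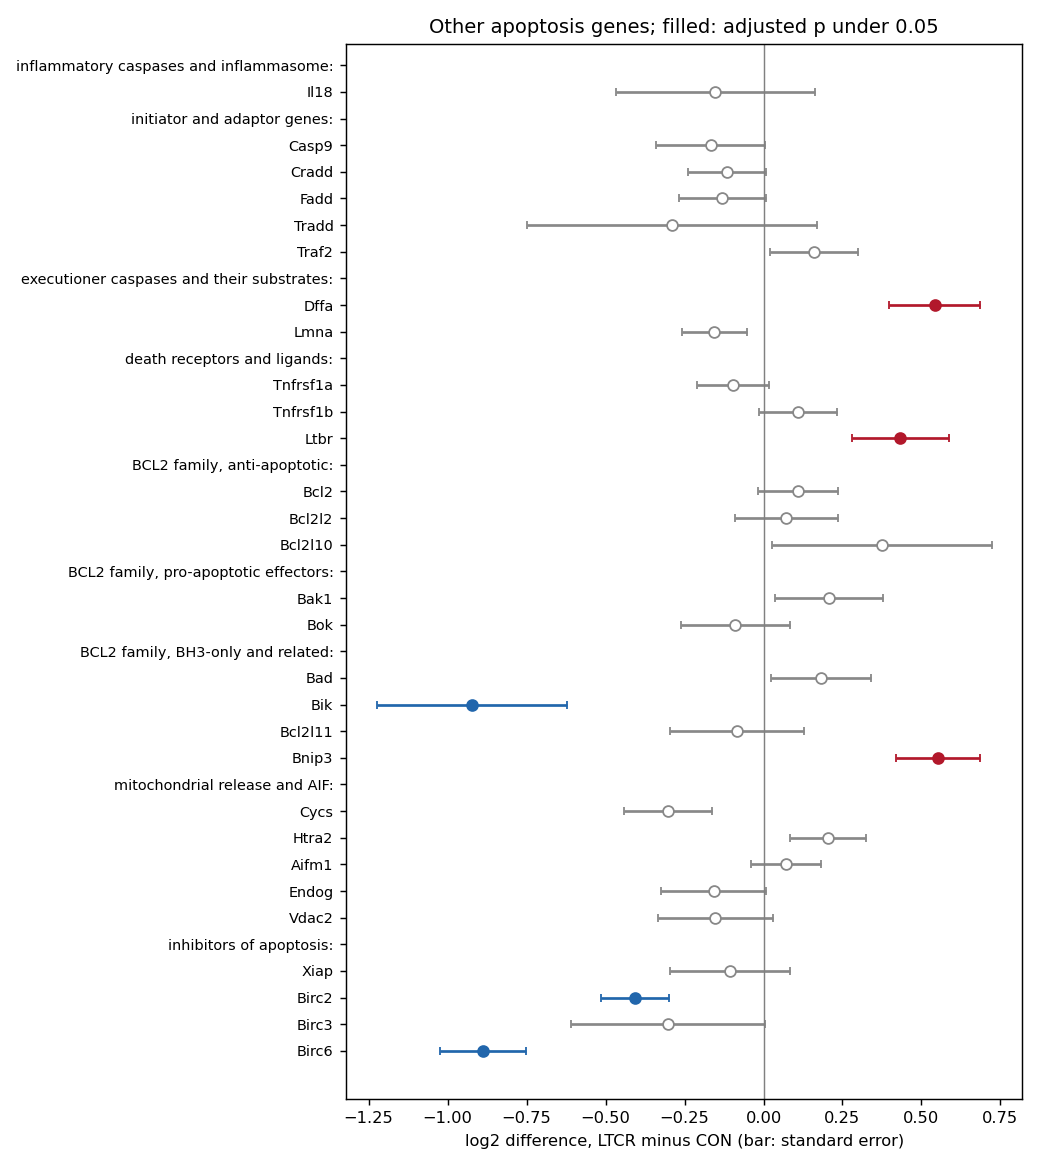
Log2 difference between LTCR and CON (x axis, bars 1 SE) for the 29 tested genes of the apoptosis lists, in rows grouped by list; filled points have a limma adjusted p under 0.05. Dffa, Ltbr and Bnip3 are filled to the right of 0, and Bik, Birc2 and Birc6 to the left.

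Of the 6 called differences between pairs of groups, those of LTCR against CON were kept under all 17 alternatives tried. For Casp6 the adjusted p stayed between 3.23e-05 and 0.000379, and for Bcl2l1 between 0.00590 and 0.0418. Casp6 and Casp2 in MET lost their calls under 13 of 17 and 11 of 16 alternatives, Cflar in GLIP under 12 of 16 and Casp6 in LTCR against CR8 under 6 of 17, all with the direction kept.

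**Figure D5:**
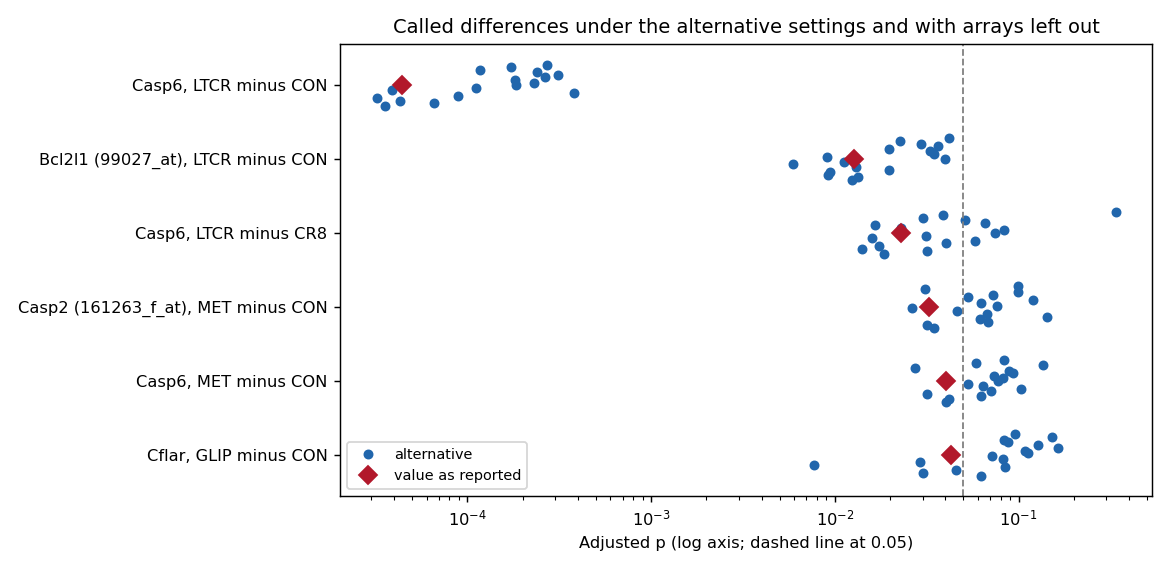
Limma adjusted p (log axis) of the 6 called member differences as reported (diamonds) and under each alternative setting or with an array left out (points); the dashed line is 0.05. Points of Casp6 and Bcl2l1 in LTCR against CON all lie left of the line, and those of the other 4 differences fall on both sides.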

How the data were processed

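The authors' deposited table holds 1 linear intensity per probe set and array (0.1 to 47323.7) from Affymetrix MG-U74Av2 arrays. The deposited intensity values were already scaled: each column's mean without its top and bottom 2% was 500.4 to 500.5. Software, background correction, detection calls and batches are not given in the sources used here. Of 12488 probe sets, 66 controls were left out; among the other 12422 the platform annotation gave 1 symbol for 10833, several for 396 and none for 1193.

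Values were analysed as log2(intensity + 27), 27 being the 20th percentile of all intensities. Probe sets with a mean log2 value above that of the 40th percentile (94.2) were tested, 7357 in all. One limma 3.58.1 fit in R 4.3.3 (lmFit, eBayes with trend) covered all arrays, so that the groups shared 1 estimate of the spread (24 residual degrees of freedom, 4.59 added by the prior). Benjamini-Hochberg adjustment ran over all tested probe sets within each of 10 comparisons and for the F test, at 0.05. The fit was also run on simulated data drawn from its own means and spreads, which cannot check its calls here. The number of arrays limits the precision.

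Named genes are all members, called genes of the apoptosis lists (each by its brightest probe set) and, for each member passing the F test, the 3 most correlated genes. Members and lists were chosen with earlier results of these data known. Alternatives tried were quantile or equal-median scaling, other added values and filters, fits of 2 groups, a replicate block, each array left out and, chosen after seeing the data, no arrays with muscle transcripts. Array numbers did not pair the arrays: deviations of same-numbered arrays had a median correlation of -0.006 over 112 pairs.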

Additional observations from a re-analysis of the deposited data

Results flagged for a closer look

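In 4 of the 80 sets of 4 arrays examined (10 member probe sets in 8 groups), 1 array stood far from the other 3, and chance gives about 1 in 20. The Casp1 value of CR8 3 was 202.9, with the other CR8 arrays at 63.6 to 73.2. Bcl2l1 99026_at read 48.6 in the same array, and the next highest read 12.3. Mcl1 was 753.1 in CON 2 and at least 1045.6 in the other controls. Bcl2l1 99027_at was 553.7 in MET 4 and 658.2 to 666.3 in the other MET arrays.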

How the results depend on the processing

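No member difference with an unadjusted p under 0.05 changed sign under any alternative. Of the printed differences near 0, Mcl1 in LTCR against CON (-0.01) became 0.02 with equal medians, 0.03 with quantile normalization and 0.05 without the muscle arrays, and Casp2 99049_at in MET against CON (-0.01) became 0.06 with equal medians and 0.05 with quantile normalization. LTCR against CON kept 2 or 3 called members under all 17. Members called in MET against CON went from 2 to 0 with quantile normalization, equal medians, no filter, only the 2 groups compared, or no muscle arrays, to 1 with a filter at the 60th percentile or with the replicate block, and to 0 to 1 with an array left out. In GLIP against CON the 1 member became 0 with an added value of 1, no filter, the filter at the 60th percentile (which does not test Cflar), the replicate block, no muscle arrays, or any array left out. For LTCR against CR8 the 1 member became 0 with only the 2 groups or no muscle arrays, and 0 to 2 with an array left out. In GM against CON 0 became 2 with equal medians. The F test called 1 member, not 3, under the filter at the 60th percentile, which tests fewer members. With the replicate block (adjusted p = 0.0528 for Casp6 in MET, 0.0821 for Cflar in GLIP) only those 2 member calls changed, and Lmna in GM (0.0644) and Bnip3 in LTCR against CR8 (0.0598) lost theirs; the array numbers are only labels. Counts over all probe sets ranged from 11 to 68 in CR8 against CON (40 as reported), 33 to 320 in MET (307), 1 to 11 in GLIP (10), 4 to 427 in GM (114), 4 to 12 in ROS (10), 426 to 949 in LTCR against CR8 (882) and 0 to 234 in GM against MET (193). Equal medians shifted the median of all probe sets in GM against CON from -0.05 to 0.09, and moved the higher and lower calls from 64 and 50 to 408 and 19 in GM, from 135 and 172 to 191 and 65 in MET, from 13 and 27 to 18 and 18 in CR8, and from 96 and 97 to 176 and 58 in GM against MET. The cause of these changes was not tested. Without detection calls, values near 27 cannot be told from background.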
